A study of Mus musculus with 6 samples.

Results

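The mouse zinc finger genes with symbols from Zfp900 to Zfp999 were described in 6 libraries of Sertoli cells, which line the seminiferous tubule and nurse developing germ cells. Members were all genes in this range of symbols whose FPKM (fragments per kilobase, relative to library depth), summed over the transcripts that carry the symbol, averaged at least 0.5 over the 6 libraries. This left 49 of 67 symbols in the range, out of 57353 genes and unnamed loci in the tables. Just above the threshold lay Zfp936 (mean 0.516), Zfp968 (0.518) and Zfp940 (0.521), and just below it Zfp984 (0.481), Zfp997 (0.47) and Zfp970 (0.466). Total RNA came from Sertoli cell lines that either expressed GFP from a Y-linked reporter (GFP-positive libraries 2, 4 and 7) or did not (GFP-negative libraries 9, 11 and M), 3 libraries per group. The labels call the GFP-positive lines green and the others non-green, and give no age, strain, passage or reporter construct. They do not say whether the libraries of a group came from separate cultures or animals, so each p-value speaks only to the variation among these samples, part of which could be technical.

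KRAB zinc finger proteins form one of the largest families of transcription factors in mammals. An array of Cys2-His2 zinc fingers reads the DNA, often within a transposable element, and the KRAB domain at the other end of the protein binds the corepressor TRIM28 (KAP1). TRIM28 in turn brings the histone methyltransferase SETDB1, HP1 proteins and the NuRD complex to the site, which deposit repressive chromatin. The genes arose by repeated local duplication, so many stand in clusters of close copies, and their numbers differ between mouse strains and between species. Zfp979 is also known as Ssm1b, a modifier of transgene methylation that differs between strains.

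The members fit the family name by sequence. Coding sequences of GENCODE release M21 were translated and searched for the finger spacing and for the core of the KRAB A box. All 49 members held at least 1 finger, with 2 to 18 fingers and a median of 11. Zfp993 had 2 fingers in the annotated product with the most, and Zfp945 and Zfp976 had 18. A finger together with a KRAB A box was found in 48 members (98.0%), against 286 of 22101 protein-coding genes (1.29%) and 135 of 304 other numbered Zfp genes (44.4%). The box pattern was widened after the members it missed had been seen, so the first of these counts is not independent. Its first, narrower form found both features in 29 members (59.2%), 0.823% of all genes and 36.8% of the other numbered Zfp genes. Zfp956 was the member with fingers and no match to the wider pattern.

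Promoters were read from RefSeq (GRCm38.p6) and were found for 42 of the 49 members, 41 by symbol and 1, Zfp998, by gene ID under its older symbol 2410141K09Rik. Each window ran from 250 bases before to 50 bases after the start of the gene. The word GCCAGTCAGA stood in 14 member promoters (33.3%) on chromosomes 2, 5, 7, 13 and 19, against 96 of all 27025 promoters (0.355%) and 2 of 253 other numbered Zfp promoters (0.791%), counting both strands. Of the 229 promoters of all genes with fingers and a KRAB A box, 32 (14.0%) held the word, and 18 of these belonged to genes that are not members. Below the expression threshold, Zfp970, Zfp972 and Zfp977 held the word too. The word was taken because no other 10-base word occurred in more member promoters (2 overlapping words tied at 14), so its frequency in members is a description and carries no test. On chromosome 2 it was held by Zfp931, Zfp965, Zfp966, Zfp967, Zfp968, Zfp971 and Zfp973, all in the distal part of the chromosome. Among these, Zfp965, Zfp967 and Zfp968 share nearly all their transcript sequence with other genes. The 14 promoters are thus not all separate observations. In all 14 the word lay on the gene's own strand, with a CCAAT box exactly 20 bases upstream, and its first base was 7 to 87 bases before the start. That pair at that spacing was found in 60 of all promoters (0.222%), of which 31 belonged to genes with fingers and a KRAB A box. Both counts include the 14 members from which the word and the spacing were taken, so they are not independent of that choice. These 4 promoters, from 4 chromosomes, show the shared pair, with capitals for each GCCAGTCAGA and each CCAAT on either strand (ATTGG on the opposite one).
Zfp998 (chromosome 13, 66441119 to 66441368, minus strand): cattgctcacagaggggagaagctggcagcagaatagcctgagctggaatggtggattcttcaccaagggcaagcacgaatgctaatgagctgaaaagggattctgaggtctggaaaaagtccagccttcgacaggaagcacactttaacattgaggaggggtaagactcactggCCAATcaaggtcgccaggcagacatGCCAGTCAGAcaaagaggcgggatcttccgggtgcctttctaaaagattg
Zfp936 (chromosome 7, 43177340 to 43177589, plus strand): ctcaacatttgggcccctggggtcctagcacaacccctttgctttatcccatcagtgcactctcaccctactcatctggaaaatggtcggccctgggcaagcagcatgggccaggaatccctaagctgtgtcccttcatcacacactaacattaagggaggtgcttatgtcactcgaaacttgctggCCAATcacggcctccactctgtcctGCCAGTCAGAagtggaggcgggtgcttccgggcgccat
Zfp931 (chromosome 2, 178078426 to 178078675, minus strand): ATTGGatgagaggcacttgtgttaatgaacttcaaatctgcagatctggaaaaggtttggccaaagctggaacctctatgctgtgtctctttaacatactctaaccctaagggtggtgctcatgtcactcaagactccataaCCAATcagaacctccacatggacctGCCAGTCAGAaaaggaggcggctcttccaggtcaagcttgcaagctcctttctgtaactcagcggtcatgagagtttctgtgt
Zfp951 (chromosome 5, 104860028 to 104860277, minus strand): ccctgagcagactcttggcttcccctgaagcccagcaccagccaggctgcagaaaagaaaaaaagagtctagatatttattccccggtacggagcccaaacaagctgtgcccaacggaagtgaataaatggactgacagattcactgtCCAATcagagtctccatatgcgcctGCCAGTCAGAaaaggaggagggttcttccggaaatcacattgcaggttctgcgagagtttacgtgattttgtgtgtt

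The members on chromosome 4 and chromosome 17 with a promoter in the table did not hold the word. On chromosome 4, Zfp979 and Zfp981, which are described further below, shared a longest identical run of 23 bases with each other. Capitals again mark CCAAT on either strand.
Zfp979 (chromosome 4, 147642509 to 147642758, minus strand): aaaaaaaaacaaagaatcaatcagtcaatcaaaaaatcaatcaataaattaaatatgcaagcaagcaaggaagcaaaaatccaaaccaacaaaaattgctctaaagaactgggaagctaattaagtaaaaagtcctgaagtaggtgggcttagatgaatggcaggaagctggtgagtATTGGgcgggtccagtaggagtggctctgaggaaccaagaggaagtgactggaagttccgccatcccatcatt
Zfp981 (chromosome 4, 146514670 to 146514919, plus strand): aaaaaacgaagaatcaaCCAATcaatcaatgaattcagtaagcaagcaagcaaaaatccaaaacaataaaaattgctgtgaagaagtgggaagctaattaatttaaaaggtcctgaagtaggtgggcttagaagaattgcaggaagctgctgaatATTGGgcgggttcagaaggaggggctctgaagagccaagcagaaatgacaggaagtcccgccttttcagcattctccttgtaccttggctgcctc

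CCAAT itself was in 31 of 42 member promoters (73.8%) against 37.9% of all promoters. The ETS-type word CCGGAAG was in 12 (28.6%) against 9.12%, and TATAAA in none of the 42 against 14.2%, both strands counted. Among other numbered Zfp promoters the shares were 45.1% for CCAAT, 21.3% for CCGGAAG and 7.11% for TATAAA. The motifs were looked at after the promoters had been seen. Members with and without GCCAGTCAGA had median log2 differences between the groups of 0.57 (14 members) and 0.52 (28 members).

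The members were transcribed at low levels, between a mean of 0.516 and 6.46 FPKM over the 6 libraries with a median of 1.55, and Zfp998 was listed at 0 in 2 of them. Levels below are deposited FPKM scaled between libraries by the median of ratios, and differences are GFP-positive minus GFP-negative on the scale log2(scaled FPKM + 0.5), tested with limma over all 18921 genes that passed the same threshold. Levels moved together over the 49 genes, and more by library than by group. Summed over the members, the level was 156, 71.8 and 102 in GFP-positive libraries 2, 4 and 7, and 105, 38.6 and 53.7 in GFP-negative libraries 9, 11 and M. GFP-positive 2 was the highest library for 36 members (19.9% of all genes tested), and GFP-negative 11 the lowest for 31 (22.5% of all genes). The order 2, then 7, then 4 within GFP-positive held for 39 members (79.6%), against 24.3% of all genes tested. Within GFP-negative the order 9, then M, then 11 held for 35 (71.4%), against 24.8%. GFP-negative 9 lay above GFP-positive 4 for 41 members (83.7%, against 49.0% of all genes) and above GFP-positive 7 for 30 (61.2%, against 48.9%), so the groups overlapped in most genes.

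**Figure D1:**
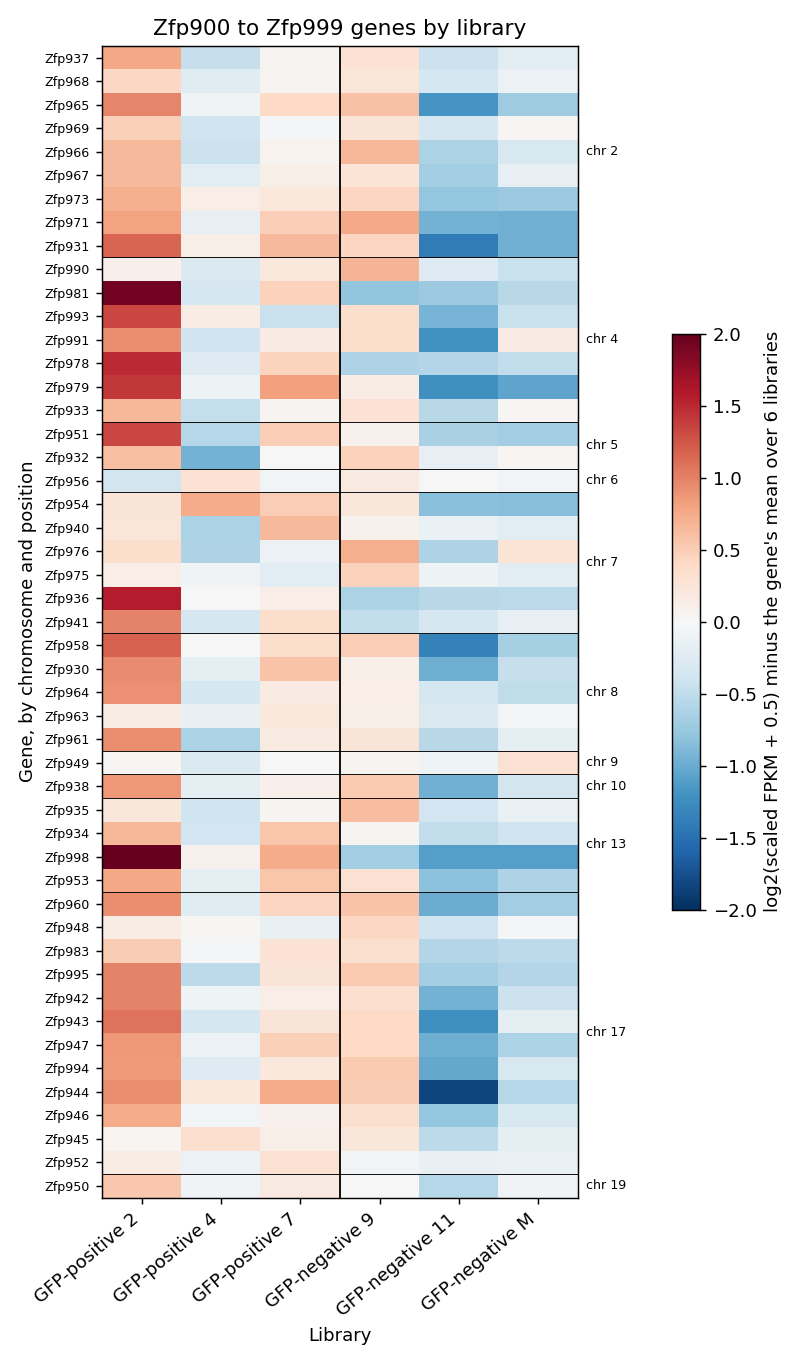
Level of each of the 49 genes (rows, by chromosome and position) in each library (columns), as log2(scaled FPKM + 0.5) minus the gene's mean over 6 libraries; red is above and blue below that mean. GFP-positive 2 is red and GFP-negative 11 blue along nearly the whole column, while GFP-negative 9 is red for most genes.

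Set against each gene's own mean over the 6 libraries, the median of the members was 0.77, -0.20 and 0.21 in GFP-positive 2, 4 and 7 and 0.30, -0.64 and -0.36 in GFP-negative 9, 11 and M. For all genes tested the same median stayed between -0.03 and 0.01. Other numbered Zfp genes had medians from -0.18 to 0.19, the highest again in GFP-positive 2. The SD of the members' median between libraries of a group was 0.49 in GFP-positive and 0.48 in GFP-negative, about as large as the difference between the groups.

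**Figure D2:**
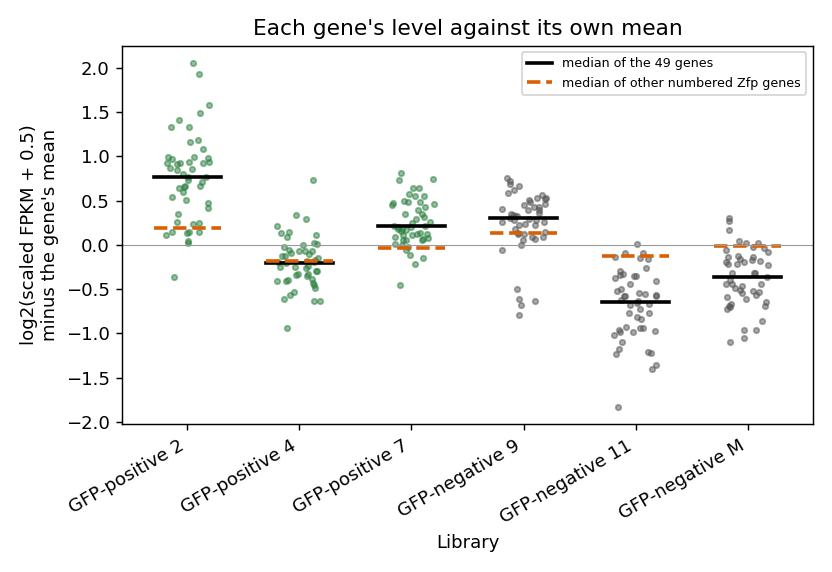
Each point is 1 of the 49 genes, as log2(scaled FPKM + 0.5) minus the gene's mean, in 1 library (green GFP-positive, grey GFP-negative). Solid bars are the medians of these genes, from 0.77 in GFP-positive 2 to -0.64 in GFP-negative 11, and dashed bars the medians of the other numbered Zfp genes.

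The comparison of the groups asks how lines that express the Y-linked reporter differ from lines that do not. Of the 49 members, 43 had a positive difference (87.8%), against 50.6% of all genes tested, but 14 had one with libraries scaled to an equal sum of FPKM. Their median difference was 0.52 (quartiles 0.17 and 0.81), where all genes had a median of 0.01 and the 263 other numbered Zfp genes tested 0.06. Among the latter, the 113 with fingers and a KRAB A box, a set formed after the data were seen, had a median of 0.28. Yet 1 member passed the adjusted threshold of 0.05, Zfp998, which was higher in GFP-positive (2.04% of members), and none was lower. Zfp998 is among 8 members whose mean level reached 0.5 in GFP-positive and not in GFP-negative (1 member, Zfp948, was the other way round). Such members had to differ to be included, so the counts and the median describe the members and support nothing further. Of all genes tested, 11.9% were called higher and 8.56% lower. At an unadjusted limma p under 0.05 the counts were 7 higher and 0 lower, where 20.7% of all genes were higher. The groups did not overlap in 5 members (10.2%), Zfp936, Zfp954, Zfp978, Zfp981 and Zfp998, all with GFP-positive above. Of all genes tested, 22.4% had GFP-positive above and 20.7% GFP-negative above. Both shares of members are below those of all genes. Under the main scaling a positive sign was thus more frequent among members than among all genes, by differences mostly within the spread between libraries. The members moved together by library, so the 49 signs are not separate observations and carry no test. Without GFP-negative 9, 9 members were called higher (15.6% of all genes), and without GFP-negative 11 and M together, an omission chosen after seeing the data, the median was -0.12 and 16 members had a positive difference, with 0 called (0.00529% of all genes were higher). With limma's library weights 22 members were called higher, as were 32.0% of all genes. Scaling to an equal sum of FPKM moved the median of all genes to -0.88 and that of the members to -0.23, with 1 member called higher (3.37% of all genes) and 1, Zfp949, lower (39.3%); signs given below are under the main scaling.

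**Figure D3:**
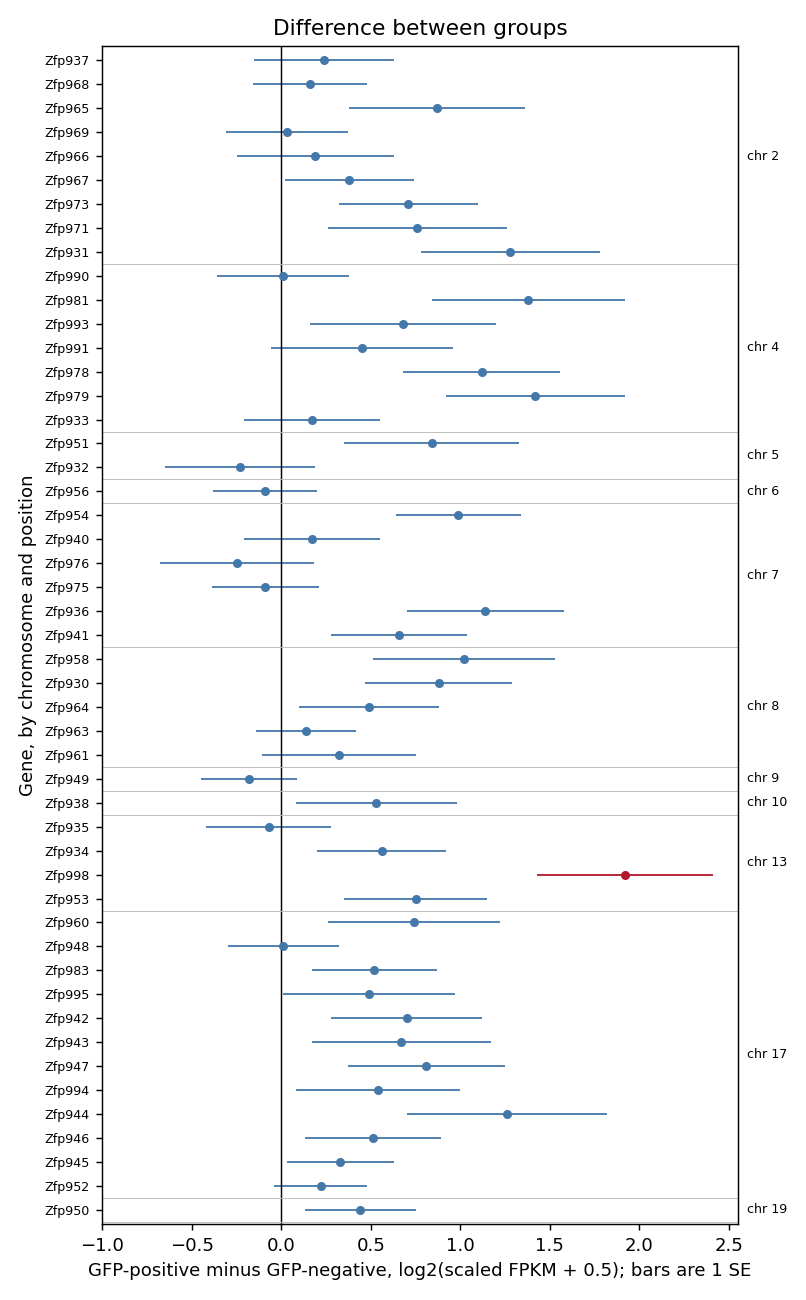
Difference between the groups for each of the 49 genes on the log2(scaled FPKM + 0.5) scale, with bars of 1 SE (limma, 3 against 3 libraries, median-of-ratios scaling), by chromosome and position. The called gene, Zfp998 (1.92, red), lies farthest right; 6 genes lie left of 0.

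Zfp998 lies on chromosome 13 (66566173 to 66589179, minus strand, mm39) and encodes up to 14 fingers. Its level was 3.95, 0.635 and 1.29 scaled FPKM in GFP-positive 2, 4 and 7. In GFP-negative 9 it was 0.166, and it was listed at 0 in GFP-negative 11 and M. The groups did not overlap, and GFP-positive 2 was far above the other libraries. The log2 difference was 1.92 (SE 0.49, limma adjusted p = 0.0326), a value that depends on the pseudocount since GFP-negative is at or near 0. The call was lost by limma without GFP-positive 7 (adjusted p = 0.0906, 0.137% of all genes called higher), without GFP-negative 11 (adjusted p = 0.0814, 5.36%) or without GFP-negative M (adjusted p = 0.117, 0.148%). It was also lost with no filter (adjusted p = 0.0961) and after removal of the trend with length (adjusted p = 0.0642, 4.49%). Over 19 alternatives the adjusted p ran from 0.000628 to 0.319. One transcript carried 96.1% of the level, and a gene on the opposite strand, Gm26754, overlaps the locus.

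A further 3 members had no GFP-negative library over 0.2 scaled FPKM, a limit set after the values were seen. Zfp981 (chromosome 4, 146586484 to 146623852, 7 fingers) stood at 3.03, 0.237 and 0.782 in GFP-positive 2, 4 and 7 and at 0.0368, 0.0607 and 0.134 in GFP-negative 9, 11 and M. Zfp978 (chromosome 4, 147445760 to 147475461, 3 fingers) stood at 1.91, 0.218 and 0.671 against 0.0622, 0.0748 and 0.11. Zfp936 (chromosome 7, 42763653 to 42841533, 11 fingers) stood at 2.0, 0.346 and 0.415 against 0.0386, 0.0737 and 0.0797. In each of these genes all GFP-positive libraries were above all GFP-negative ones, with GFP-positive 2 the highest and GFP-positive 4 the lowest of its group. All 3, like Zfp998, reached the mean of 0.5 FPKM only through GFP-positive, so that a higher level there follows from the threshold. The log2 differences were 1.38 (SE 0.54, adjusted p = 0.0988), 1.12 (SE 0.44, adjusted p = 0.103) and 1.14 (SE 0.44, adjusted p = 0.0963) by limma. With unnamed isoforms of the locus added, Zfp978 passed the threshold as well (1.53, limma adjusted p = 0.0497, where 16.0% of all genes were called higher). It also passed with limma's library weights (0.98, limma adjusted p = 0.00984, 32.0% of all genes). Its difference fell to 0.6 (limma adjusted p = 0.411) with the length trend removed and to 0.66 (limma adjusted p = 0.175) without GFP-positive 2.

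Below the expression threshold, 9 of the 18 symbols in the range had a positive difference in a fit with no filter on low values, with a median of 0.11 (quartiles -0.16 and 0.43). Of these 18, 6 had all GFP-positive libraries above all GFP-negative ones, namely Zfp997 on chromosome 13 and Zfp980, Zfp986, Zfp987, Zfp988 and Zfp989 on chromosome 4. This is 33.3% of the 18, where 7.27% of the 18947 genes that entered only without the filter were of this kind. Those 18947 needed only a level above 0 in any library, so the shares are not closely comparable. The genes named on chromosome 4 stand in the same cluster. Between 46.1% and 77.9% of the 100-base windows of their longest transcripts also occur in other genes. They are therefore not separate observations. Zfp997 stood at 1.66, 0.384 and 0.604 against 0.0347, 0.00516 and 0.0329 scaled FPKM. Zfp988 stood at 1.57, 0.0727 and 0.316 against 0.0687, 0.00623 and 0.0553. In the fit with no filter none of the 67 symbols was called either way (8 higher and 0 lower at an unadjusted p under 0.05 by limma), where 1.98% of all genes were called higher and 0.977% lower. No read counts were used, so levels this low have no counting interval.

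The summed level of germ cell markers had the order 2, then 7, then 4 within GFP-positive. Of 12 listed germ cell genes 8 were tested and 6 were called higher in GFP-positive, with a summed level of 149, 34.0 and 53.3 scaled FPKM in GFP-positive 2, 4 and 7 against 1.3, 1.66 and 2.8 in GFP-negative 9, 11 and M. The order held for 5 of the 8 genes, such as Mael, a piRNA pathway gene (49.8, 9.25 and 16.3 against 0.378, 0.158 and 0.519). It did not hold for the named transcripts of Dazl (50.3, 4.82 and 4.28), nor for Stra8 (0.0822, 3.64 and 11.0) and Kit (0.449, 0.731 and 0.774), which were lowest in GFP-positive 2. With unnamed isoforms added, Dazl stood at 63.2, 7.92 and 15.9, and the order held for 6 of the 8. The protamine genes Prm1 and Prm2, which mark late spermatids, were listed at 0 in every library. The part of germ cell RNA in the levels of the zinc finger genes was not tested. In bulk RNA, fewer cells of a type and less RNA per cell cannot be told apart. Sertoli markers summed to 711 to 3290 over the libraries, and most of that was Clu (510 to 2830). On named transcripts, Gata1 and Rhox5 of that list were at 0 in some libraries. With unnamed isoforms added, Gata1 was above 0 in every library (1.49, 11.5 and 5.52 in GFP-positive 2, 4 and 7 against 2.29, 0.531 and 2.2). Of 11 tested, 1 was called higher by limma, Dmrt1 (1.15, adjusted p = 0.0173). The 2 called lower by limma were Sox9 (-1.86, adjusted p = 0.0132) and Gata4 (-1.77, adjusted p = 0.0407). Fibroblast markers summed to 1260 and 385 in GFP-negative 11 and M, the libraries with the lowest member levels, and to 77.8 to 149 in the other libraries, with none of 5 tested called (limma; Col1a1 at an unadjusted p of 0.0115 and Col1a2 at 0.0468). Most of the sum in GFP-negative 11 was Col1a1 (680) and Col1a2 (438). Col3a1 had a difference of -0.22, and Dcn went the other way (1.0), lowest in GFP-negative 11. Peritubular myoid markers summed to 132, 1880 and 1070 in GFP-positive 2, 4 and 7, the reverse of the members' order there. In GFP-negative 9, 11 and M they summed to 403, 865 and 320. Most of the sum in GFP-positive 4 was Tagln (1410) and Acta2 (454). None of 6 was called by limma (2 lower and 0 higher at an unadjusted p under 0.05). With unnamed isoforms added, limma called Myh11 (-2.48, adjusted p = 0.0455), Actg2 (-2.18, adjusted p = 0.04) and the fibroblast marker Col1a1 (-4.2, adjusted p = 0.0379) lower. In that fit 13.0% of all genes were called lower. The part of these markers was not tested either.

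**Figure D4:**
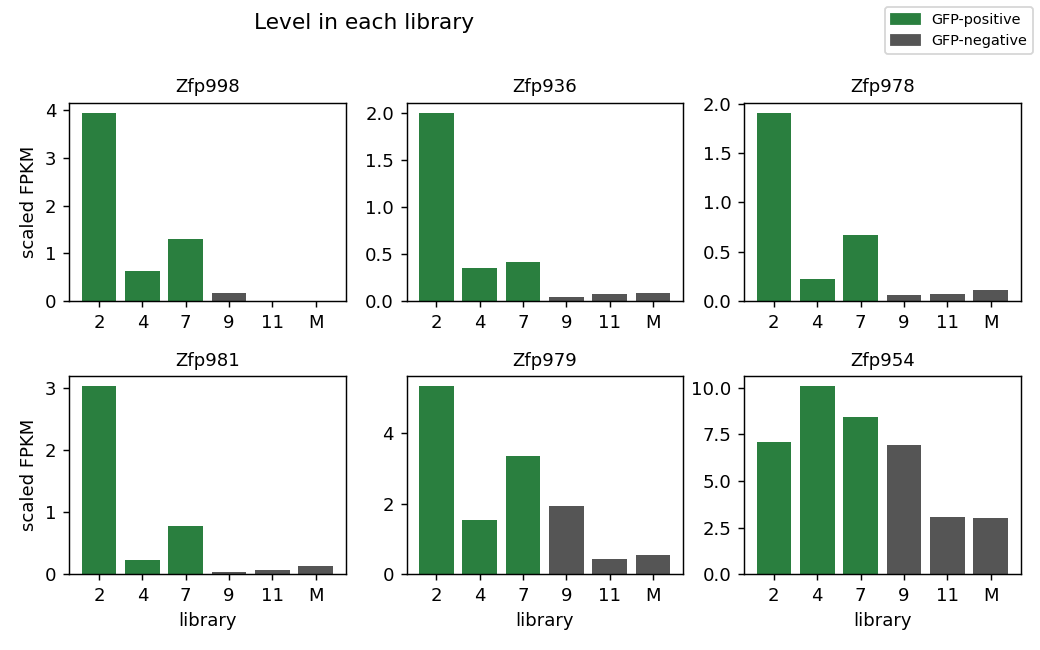
Scaled FPKM in each library (green GFP-positive 2, 4 and 7, grey GFP-negative 9, 11 and M) for 6 of the genes; bars are single libraries and start at 0. Zfp998, Zfp936, Zfp978 and Zfp981 are at or near 0 in every GFP-negative library, while Zfp979 and Zfp954 are measurable in all 6.

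The most abundant member was Zfp954 (chromosome 7, 7117689 to 7124487, 9 fingers), at 7.1, 10.1 and 8.43 scaled FPKM in GFP-positive 2, 4 and 7 and 6.92, 3.06 and 3.02 in GFP-negative 9, 11 and M. All GFP-positive libraries were above all GFP-negative ones, by a narrow margin over GFP-negative 9. The mean was 8.55 ± 1.51 (SD, n = 3) against 4.33 ± 2.24, a log2 difference of 0.99 (SE 0.35, limma adjusted p = 0.0778) that did not pass. It was one of 3 members highest in GFP-positive 4, with Zfp945 and Zfp956. Next in level came Zfp971 on chromosome 2, at 7.88, 3.77 and 6.27 against 7.61, 2.0 and 1.97. There GFP-negative 9 was close to the highest library and the other GFP-negative libraries lowest, and the log2 difference was 0.76 (SE 0.50, limma adjusted p = 0.293). Zfp958 (chromosome 8, 4663167 to 4680231) stood at 9.12, 3.72 and 4.89 against 5.44, 1.15 and 2.16, a difference of 1.02 (SE 0.51, limma adjusted p = 0.174).

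On chromosome 2 the 9 members were all positive in sign, none called, with a median of 0.38. Neighbouring numbered Zfp genes whose starts lay at most 500 kb apart were taken as 1 run, which gave 23 runs that hold members, 9 of them with at least 2 members. At a gap of 1000 kb there were 21 and 7. The distal part of chromosome 2 held 3 runs. The first had 4 members (175214229 to 175722893), with Zfp965 the highest at 6.59, 2.93 and 4.24 against 4.89, 1.09 and 1.71 scaled FPKM, a log2 difference of 0.87 (SE 0.49, limma adjusted p = 0.221). Zfp966, Zfp968 and Zfp969 had log2 differences of 0.19, 0.16 and 0.03. The second held Zfp967 (0.38) and Zfp973 (0.71), which was the higher in level. The third held Zfp971 and its neighbour Zfp931, at 7.85, 3.52 and 5.3 against 4.51, 0.91 and 1.41, with a log2 difference of 1.28 (SE 0.50, limma adjusted p = 0.0998). Zfp937, in a run of its own among members, had 0.24.

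Close copies limit what can be said of single genes there. In Zfp965, Zfp967 and Zfp969 all 100-base windows of the longest transcript also occurred in a transcript of another gene, and in Zfp968 98.6% did. Over the members, 19 shared at least 10% of such windows and 11 at least 50%, so the division of reads between these genes is uncertain. The 19 had a median log2 difference of 0.45 and the 30 with less sharing 0.53. Zfp998 (3.26% shared), Zfp936 (2.85%) and Zfp954 (0.0%) share little, whereas Zfp978 shares 56.0%.

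The run on chromosome 4 (145237329 to 147932823) held 16 symbols of the range, of which 7 were members. All 7 were positive in sign, with a median log2 difference of 0.68, and none was called. Its highest member, Zfp979 (147696394 to 147726970, minus strand), stood at 5.33, 1.54 and 3.34 scaled FPKM in GFP-positive 2, 4 and 7 and 1.92, 0.429 and 0.557 in GFP-negative 9, 11 and M. The groups overlapped, since GFP-negative 9 was above GFP-positive 4. The log2 difference of 1.42 (SE 0.50, limma adjusted p = 0.0757) did not pass. Its 2 main transcripts differed in pattern. The one that carried 48.6% of the level stood at 1.28, 1.21 and 1.69 against 1.77, 0.227 and 0.205, and the one that carried 45.8% stood at 3.94, 0.18 and 1.54 against 0.0949, 0.0712 and 0.182. The second transcript was near 0 in every GFP-negative library, as Zfp981 and Zfp978 were, while the first was as high in GFP-negative 9 as in any GFP-positive library. The division of reads between such isoforms is an estimate by the assembler. The locus also carries other gene names and 3 unnamed isoforms, which could not be assigned to a gene. Those isoforms averaged 2.64 deposited FPKM, against 2.26 for the named transcripts of Zfp979. Zfp993, Zfp991, Zfp933 and Zfp990 had differences of 0.68, 0.45, 0.17 and 0.01.

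The largest run by members was on chromosome 17 (21787270 to 23086108), with 10 of 10 symbols of the range expressed and all 10 positive in sign. Their median log2 difference was 0.53, none was called, and in no member did the groups fail to overlap. The summed level of the run was 30.4, 14.2 and 19.1 scaled FPKM in GFP-positive 2, 4 and 7 and 21.6, 5.95 and 10.7 in GFP-negative 9, 11 and M. GFP-negative 9 was thus above 2 of the GFP-positive libraries. Zfp942 was the highest member, at 6.63, 2.86 and 3.43 against 4.01, 1.36 and 2.14, a log2 difference of 0.70 (SE 0.42, limma adjusted p = 0.254). Zfp944 had the largest difference of the run, 1.26 (SE 0.56, limma adjusted p = 0.135), with 0.0491 scaled FPKM in GFP-negative 11 and 0.82 to 3.22 elsewhere. The rest ran from 0.81 in Zfp947 through Zfp943 (0.67), Zfp994 (0.54), Zfp983 (0.52), Zfp946 (0.51), Zfp995 (0.49) and Zfp945 (0.33) to 0.01 in Zfp948. Outside the run, Zfp960 had 0.74 and Zfp952 0.22.

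On chromosome 7 the members did not share a direction. In the run from 42258950 to 42841533, Zfp936 was near 0 in GFP-negative only, as given above, whereas its neighbours Zfp975, the highest of the 3, and Zfp976 had differences of -0.09 and -0.25, neither called. Zfp976 stood at 1.14, 0.339 and 0.691 against 1.63, 0.336 and 1.05 scaled FPKM. Zfp941, alone near the end of the chromosome, had 0.66. Its assembled locus carries other gene names too, and the unnamed isoforms there could not be assigned to a gene. Those isoforms averaged 4.67 deposited FPKM, against 0.581 for the named transcripts of Zfp941. Zfp940 had 0.17.

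All 5 members on chromosome 8 were positive in sign. The run from 69661690 to 70202620 held Zfp930 (0.88), its highest member, Zfp964 (0.49) and Zfp963 (0.14), and Zfp961 had 0.32. On chromosome 13, Zfp953, in the same run as Zfp998 and higher than it in mean level, had 0.75, and the pair Zfp934 and Zfp935 had 0.56 and -0.07. Zfp934 was the higher of that pair. Single members elsewhere were Zfp938 on chromosome 10 (0.53), Zfp950 on chromosome 19 (0.44), Zfp951 and Zfp932 on chromosome 5 (0.84 and -0.23), Zfp956 on chromosome 6 (-0.09) and Zfp949 on chromosome 9 (-0.18). None of these was called. Zfp956 and Zfp949 stayed within 0.958 to 1.79 and 1.34 to 2.27 scaled FPKM over the 6 libraries.

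Properties of the genes went only loosely with the difference. Over the 49 members, described without a test and across genes that share libraries, Pearson's r with the log2 difference was -0.35 for log2 length of the longest transcript, -0.34 for the number of fingers, 0.22 for log2 mean level and -0.11 for the share of repeated windows.

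The silencing machinery that KRAB proteins work with did not move as one. Trim28, the corepressor gene, stood at 71.2, 100 and 66.8 scaled FPKM in GFP-positive 2, 4 and 7 and 66.8, 93.2 and 67.5 in GFP-negative 9, 11 and M. Its level was far above that of any member and overlapped fully between the groups, with a log2 difference of 0.06 (SE 0.28, limma adjusted p = 0.893). Setdb1, the H3K9 methyltransferase gene, stood at 10.1, 7.19 and 7.87 against 8.32, 10.9 and 9.5, a difference of -0.19 (SE 0.25, limma adjusted p = 0.606). Listed in the same group, Atf7ip was called lower (-1.3, SE 0.39, limma adjusted p = 0.049). Atf7ip2 (1.35, limma adjusted p = 0.065) and Resf1 (0.28, limma adjusted p = 0.613) were not called. With unnamed isoforms added, Atf7ip was lower (-1.36, limma adjusted p = 0.00994) and Atf7ip2 higher (1.34, limma adjusted p = 0.0474). Of 43 genes in the list 5 were called higher and 7 lower (11.9% and 8.56% of all genes), or 6 lower without Chd3, with a median of -0.12. With unnamed isoforms added the counts were 6 and 10 and the median -0.11, where 16.0% of all genes were called higher and 13.0% lower.

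Within the list, 4 of 5 genes of the SUMO pathway, which modifies TRIM28, had a positive difference under the main scaling, and 2 were called higher. Pias1 went the other way (-0.35, limma adjusted p = 0.383). Sumo2 stood at 152, 132 and 142 scaled FPKM against 58.4, 24.5 and 31.2, a log2 difference of 1.98 (SE 0.35, limma adjusted p = 0.0141). Its difference was 0.89 (limma adjusted p = 0.0486) with libraries scaled to an equal sum of FPKM. The histone methyltransferase genes Suv39h1 (1.24, adjusted p = 0.0179) and Suv39h2 (1.62, adjusted p = 0.0291) were called higher as well. Scaled to an equal sum of FPKM, both calls were lost, at 0.19 (limma adjusted p = 0.684) and 0.81 (limma adjusted p = 0.198). Suv39h2 stood at 7.12, 2.28 and 2.9 against 0.837, 0.901 and 0.813, the same order of GFP-positive libraries as in most members. Suv39h1 was even within the groups, at 15.2, 15.5 and 15.8 against 5.05, 7.76 and 6.33. In the NuRD complex 4 of 11 genes were called lower and none higher, or 3 of 10 without Chd3, for which no direction is given. Mta1 stood at 2.98, 4.14 and 3.2 against 7.33, 30.5 and 20.9, a difference of -2.15 (SE 0.48, limma adjusted p = 0.0227). The DNA methyltransferase gene Dnmt3a stood at 4.93, 4.8 and 4.0 against 9.69, 25 and 24.9, a difference of -1.89 (SE 0.38, limma adjusted p = 0.0185). Both calls were lost in 7 of 19 alternatives, among them no filter (limma adjusted p = 0.0727 for Mta1 and 0.0584 for Dnmt3a) and the omission of GFP-positive 4 (0.0557 and 0.0508). Suv39h2 lost its call in 7, Suv39h1 in 4 and Sumo2 in 3. Chd3, a NuRD helicase gene, was called lower on its named transcripts (2.16, 1.39 and 0.836 against 6.54, 14.5 and 8.35; -2.37, SE 0.38, limma adjusted p = 0.0124). That call was turned when unnamed isoforms at the locus were added, with 66.2, 127 and 96.8 against 63.7, 59.2 and 65.9 and a difference of 0.57 (limma adjusted p = 0.17), so no direction is given for it. None of the 4 HUSH genes and none of the 3 HP1 genes was called by limma (1 and 0 at an unadjusted p under 0.05). With unnamed isoforms added, Morc2a of the HUSH group (-1.07, limma adjusted p = 0.017) and Cbx5 of the HP1 group (-0.84, limma adjusted p = 0.0346) were called lower.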

How the data were processed

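Total RNA of 6 Sertoli cell libraries was depleted of ribosomal RNA and made into strand-specific libraries by the dUTP method, per the labels' protocols. Trimmomatic, HISAT2, StringTie and build mm39 are named in the submitters' processing notes, without versions. The sources used here do not give the strand setting of the assembly. Each deposited table holds the same 153503 transcripts with the authors' FPKM and mean per-base coverage, per the file headers. Coverage divided by FPKM gave 8.25 to 11.8 gigabases of aligned sequence per library. The deposited FPKM of a library summed to 292400 to 747400 over all transcripts, lower in GFP-negative. No read counts were used.

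Gene values are sums over transcripts that carry the symbol. Unnamed isoforms were left out. They occur at the loci of 14 members, and an alternative added them for the 10 whose locus carries no other gene name; for the other 4 (Zfp941, Zfp953, Zfp979 and Zfp983) they were not assigned. Scaling between libraries used the median of ratios of 15389 genes, and log2(scaled FPKM + 0.5) was tested with limma 3.58.1 (lmFit, eBayes with trend) in R 4.3.3 for the 18921 genes that averaged 0.5 FPKM or more and had a transcript of at least 200 nt, at a Benjamini-Hochberg adjusted threshold of 0.05. On this scale changes of low genes come out too small. The method was tested on simulated data in which the noise was drawn separately for each gene. Genes that move together by library, as the members did, were not part of that simulation. Tables were read with pandas 2.3.3 and sequences translated with Biopython 1.88 in Python 3.11.15; figures used matplotlib 3.10.9. Coordinates are mm39 as deposited, except promoters (GRCm38.p6).

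The members and the lists were chosen with earlier results of these data known. Values per library are given for called members, the 6 highest members, Trim28, Setdb1 and the first 6 called machinery genes by adjusted p, and the highest member of each run is named. Genes described beyond this rule (Zfp936, Zfp978, Zfp979, Zfp981 and others with values per library, and Mael) were chosen after their values were seen. Alternatives varied the pseudocount, filter, scaling, variance model, library weights, gene value, length trend and libraries.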

Additional observations from a re-analysis of the deposited data

How the results depend on the processing

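Zfp998 kept its positive sign under all 19 alternatives (log2 difference 1.33 to 3.53) and its call in 13 of them. The count of members called higher was 1 and fell to 0 with no filter on low values, with a length trend removed, and without GFP-negative 11 and M. It rose to 2 with unnamed isoforms added and to 22 with limma's library weights, whose estimation stopped before it converged and under which 32.0% of all genes were called higher. Leaving out 1 library at a time gave 0 to 9 called higher, 0 called lower and a median difference of 0.24 to 0.80. The count called lower was 0 except for 1 (Zfp949, -1.05, adjusted p = 0.049) with libraries scaled to an equal sum of FPKM. That scaling moved the median of all genes to -0.88 and that of the members to -0.23, still above all genes, left 14 members positive in sign, and gave Trim28 a called difference of -1.04. Without GFP-negative 11 and M the members' median was -0.12. Chd3 changed sign to 0.57 with unnamed isoforms added. The causes were not tested. Signs of members called under neither setting were not compared. Other calls of members changed only by gaining significance: 21 with library weights and 8 without GFP-negative 9. No paired analysis was possible because the replicate names of the groups (2, 4 and 7; 9, 11 and M) are not shared. Levels near 1 FPKM, without counts, limit what can be resolved for single members, and shared sequence limits the chromosome 2 and 4 copies.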
